A study of Homo sapiens with 42 samples.

Results

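Ultra-long chromatin loops, those whose anchors lay 2 Mb or more apart on the same chromosome, made up 2368 of the 33914 loops in the table (6.98%). Members were chosen by the distance between the starts of their anchors alone, with no requirement on contacts. The loops were measured by in situ Hi-C in cells of the K562 line, a long-established line from human leukemia, with and without 25 nM PMA, a phorbol ester that activates protein kinase C and drives these cells toward a megakaryocyte-like state. The groups were K562 cells at 0 h, at 6 h in PMA and at 72 h in PMA, with 14 samples and 4 biological replicates each. The headers of the count columns mark all of them WT, and no other treatment or genotype was given. Technical replicates were summed into 12 libraries of 736929 to 1472197 contacts over all loops. The 72 h replicates 3 and 4 differed by no more than sampling noise gives (chi-square over degrees of freedom 1.003) and were counted as 1 sample, so that means at 72 h have n = 3. The table holds contacts and no expression, so the identity of the cells could not be checked against marker genes, and in the rearranged K562 genome the distance on the reference need not be the distance in the cells.

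A chromatin loop joins a pair of sites that lie far apart along a chromosome. Most loops described in mammalian cells end at sites bound by CTCF, where the ring-shaped cohesin complex stops extruding the DNA between them. Loops that span megabases lie beyond the usual reach of that process in cycling cells, and some of those described elsewhere join regions of repressed chromatin. A count here is the number of read pairs that joined the anchors of 10 kb, and it holds the general background of contacts at that distance as well as any focal loop.

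The loops were 2.00 to 8.91 Mb long with a median of 2.6 Mb, and 1033 of them were under 2.5 Mb, 723 were 3 Mb or more and 52 were 5 Mb or more. They held 99995 contacts over the 12 libraries, 5 to 2724 per loop with a median of 28, so that a typical member had 1 to 3 contacts in a library. The strongest member held 2.72% of these contacts and the 10 strongest held 8.27%. A protein-coding gene began or ended in 254 of the 4008 anchors (6.34%), against 7.53% of the anchors of loops of 1 to 2 Mb and 18.8% of those of loops under 1 Mb. Of the members' anchors, 22.3% also anchored a loop under 1 Mb, against 35.4% for loops of 1 to 2 Mb. The stretch between the anchors held a median of 0.676 protein-coding genes per Mb, against 0.943 for loops of 1 to 2 Mb. Of the ultra-long loops, 2095 had no protein-coding gene end at either anchor.

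The RefSeq promoter table (GRCh38.p14, the same build as the loop positions) placed 353 windows of 250 bases upstream of a start, from 303 genes, wholly within a member's anchor. Of these, 137 lay clear of other annotated genes. The 6 shown are examples from those 137. The windows of OPN5, DEFB110, SLITRK3, CITED2 and DNAJB14 lie at an anchor of a loop whose contacts rose at 72 h. Those of DNAJB14 and ANXA5 are 2 of the 5 clear windows that hold the motif searched. Capitals mark the CTCF-like motif CCNNNAGGNGGC, searched on both strands (its reverse complement is GCCNCCTNNNGG). OPN5 (chr6:47781782-47782031, plus strand) encodes a light-sensing opsin, and DEFB110 (chr6:50021995-50022244, minus strand) encodes a beta-defensin. They lie at the opposite anchors of loop13791, which rose at 72 h. SLITRK3 (chr3:165197110-165197359, minus strand) encodes a synaptic adhesion protein, and its window lay in the anchors of 3 members. CITED2 (chr6:139374649-139374898, minus strand) encodes a transcriptional co-regulator and anchored loop15081. DNAJB14 (chr4:99946619-99946868, minus strand), a co-chaperone gene of the endoplasmic reticulum, anchored 4 members, and ANXA5 (chr4:121696981-121697230, minus strand), the gene of a phosphatidylserine-binding annexin, anchored loop9659. Each sequence runs 5′ to 3′ on the strand of its gene.
OPN5: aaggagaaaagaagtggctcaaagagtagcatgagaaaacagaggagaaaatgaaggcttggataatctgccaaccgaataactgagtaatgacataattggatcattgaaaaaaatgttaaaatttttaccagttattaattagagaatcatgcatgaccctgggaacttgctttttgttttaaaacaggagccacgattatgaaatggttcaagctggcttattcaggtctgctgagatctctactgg
DEFB110: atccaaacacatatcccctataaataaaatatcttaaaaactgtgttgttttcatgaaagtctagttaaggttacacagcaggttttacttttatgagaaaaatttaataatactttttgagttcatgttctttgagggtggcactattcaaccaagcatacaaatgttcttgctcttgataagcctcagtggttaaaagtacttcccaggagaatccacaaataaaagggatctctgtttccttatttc
SLITRK3: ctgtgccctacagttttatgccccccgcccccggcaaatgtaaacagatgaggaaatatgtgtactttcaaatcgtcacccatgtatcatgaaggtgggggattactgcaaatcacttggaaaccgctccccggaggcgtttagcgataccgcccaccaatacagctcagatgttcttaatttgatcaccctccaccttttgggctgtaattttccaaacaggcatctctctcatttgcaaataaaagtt
CITED2: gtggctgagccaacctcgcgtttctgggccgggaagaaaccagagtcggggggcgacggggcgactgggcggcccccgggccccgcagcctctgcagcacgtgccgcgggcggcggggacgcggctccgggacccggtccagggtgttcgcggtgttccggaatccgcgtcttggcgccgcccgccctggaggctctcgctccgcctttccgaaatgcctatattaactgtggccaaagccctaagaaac
DNAJB14: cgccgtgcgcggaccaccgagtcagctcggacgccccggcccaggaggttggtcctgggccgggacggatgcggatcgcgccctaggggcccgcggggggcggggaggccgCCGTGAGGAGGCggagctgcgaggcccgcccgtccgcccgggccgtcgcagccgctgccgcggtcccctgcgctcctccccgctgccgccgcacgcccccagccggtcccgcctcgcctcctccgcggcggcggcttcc
ANXA5: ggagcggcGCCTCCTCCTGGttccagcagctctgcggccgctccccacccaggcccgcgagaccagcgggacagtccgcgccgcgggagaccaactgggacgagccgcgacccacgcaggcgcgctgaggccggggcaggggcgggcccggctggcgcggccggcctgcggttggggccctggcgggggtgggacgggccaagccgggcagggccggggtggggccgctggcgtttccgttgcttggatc
The motif was in 15 of the 353 windows at members' anchors (4.25%) and in 1409 of the 35116 windows of the whole table (4.01%). These shares were close. The windows differed in composition, with a median GC content of 54% at members' anchors and 58% over the whole table. FAT4 and LRRN3, which also lay at anchors of members that rose, are named without a sequence.

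Whether ultra-long loops gained contacts during treatment was asked first from their share of all loop contacts. At 0 h the members held 0.610%, 0.673%, 0.629% and 0.663% of the contacts in replicates 1 to 4. At 6 h they held 0.718%, 0.821%, 0.742% and 0.714%, and at 72 h 0.995%, 1.07%, 0.986% and 0.982%. The 3 times did not overlap: every library at 6 h was above every library at 0 h, and every library at 72 h was above every library at 6 h. The mean share was 0.644% ± 0.029 (SD, n = 4) at 0 h, 0.749% ± 0.050 (SD, n = 4) at 6 h and 1.02% ± 0.049 (SD, n = 3) at 72 h, which is 1.16 times the 0 h share at 6 h and 1.58 times at 72 h. These sums over members are given without a test. Leaving out the 10 members with the most contacts gave 1.66 at 72 h, and within replicates 1 and 2 and within replicates 3 and 4 it was 1.61 and 1.52.

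**Figure D1:**
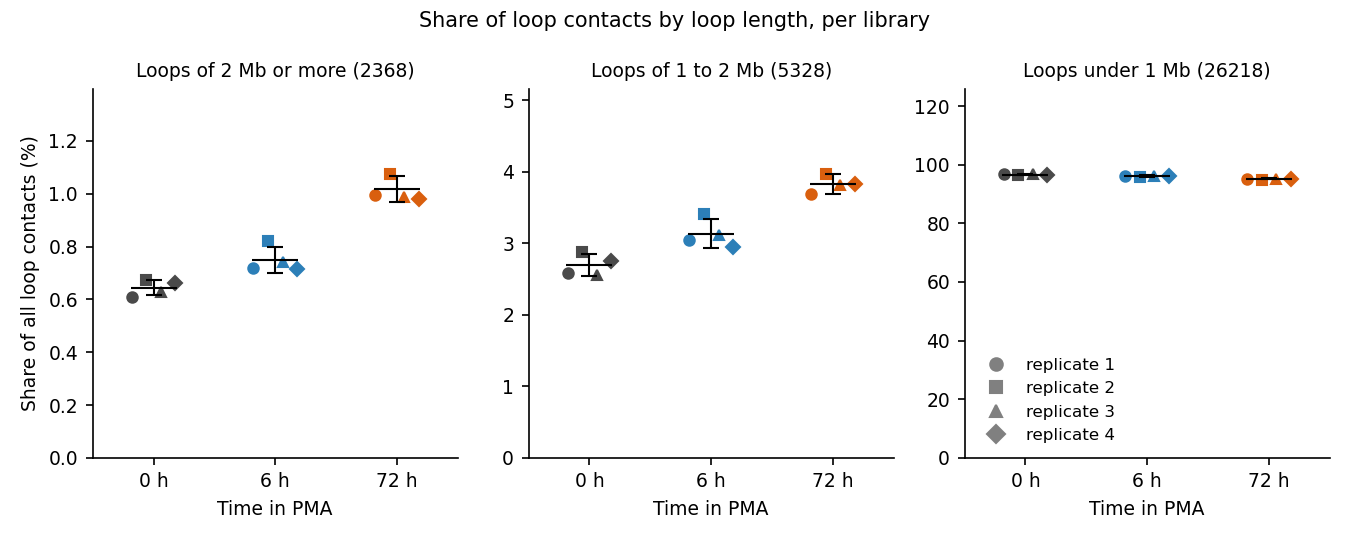
Share of all loop contacts (%, vertical axis) at 0, 6 and 72 h in PMA for loops of 2 Mb or more, of 1 to 2 Mb and under 1 Mb; each marker is 1 library, the horizontal line is the mean and the bar its SD (n = 4, 4 and 3). In loops of 2 Mb or more all 4 libraries at 72 h, from 0.982% to 1.07%, lie above those at 6 h and 0 h, and the axes start at 0 and differ between panels.

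The shift was graded by loop length and did not begin at 2 Mb. The share held by loops under 200 kb at 72 h was 0.939 times that at 0 h, that of loops of 400 to 800 kb 1.10 times, of 1 to 1.5 Mb 1.38 times and of 1.5 to 2 Mb 1.55 times. Among the members it was 1.60 times at 2 to 2.5 Mb, 1.72 times at 2.5 to 3 Mb and 1.66 times at 3 to 4 Mb. It was 1.21 times at 4 to 5 Mb (129 loops) and 1.17 times at 5 Mb or more (52 loops), where the 0 h libraries lay between 0.0264% and 0.0379% and those of 72 h between 0.0352% and 0.0415% and overlapped. Each of these longest classes held 4 of the 27 strongest members. Without members of a mean normalized count of 20 or more, the ratio was 1.79 at 4 to 5 Mb (125 loops) and 1.45 at 5 Mb or more (48 loops). A normalized count is a loop's contacts per 1000000 contacts of the tested loops in that library, after TMM scaling.

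**Figure D2:**
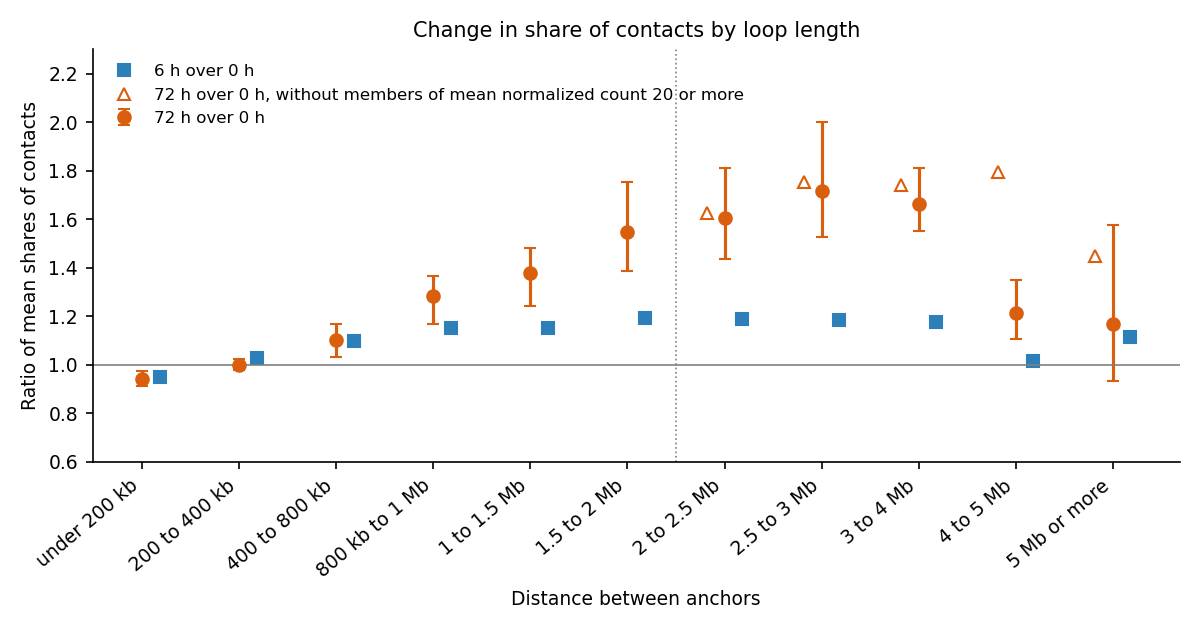
Ratio of the mean share of contacts at 72 h (circles) and 6 h (squares) to that at 0 h, by distance between anchors; bars span all pairs of a 72 h and a 0 h library, open triangles leave out members with a mean normalized count of 20 or more, and the dotted line marks 2 Mb. The 72 h ratio rises from 0.939 under 200 kb to 1.72 at 2.5 to 3 Mb and is 1.17 at 5 Mb or more.

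Strong and weak members did not move alike. The 27 members with a mean normalized count of 20 or more held 0.105% ± 0.0058 (SD, n = 4) of contacts at 0 h and 0.111% ± 0.0034 (SD, n = 3) at 72 h, a ratio of 1.06 with overlapping libraries. The ratio was 1.54 for the 66 members with a mean of 10 to 20, 1.65 for the 265 members of 5 to 10, 1.67 for the 1066 members of 2 to 5 and 1.89 for the 944 members under 2. In each of these 4 classes every 72 h library was above every 0 h library. The weakest members also had the largest ratio at 6 h, 1.39, against 1.02 for the strongest.

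**Figure D3:**
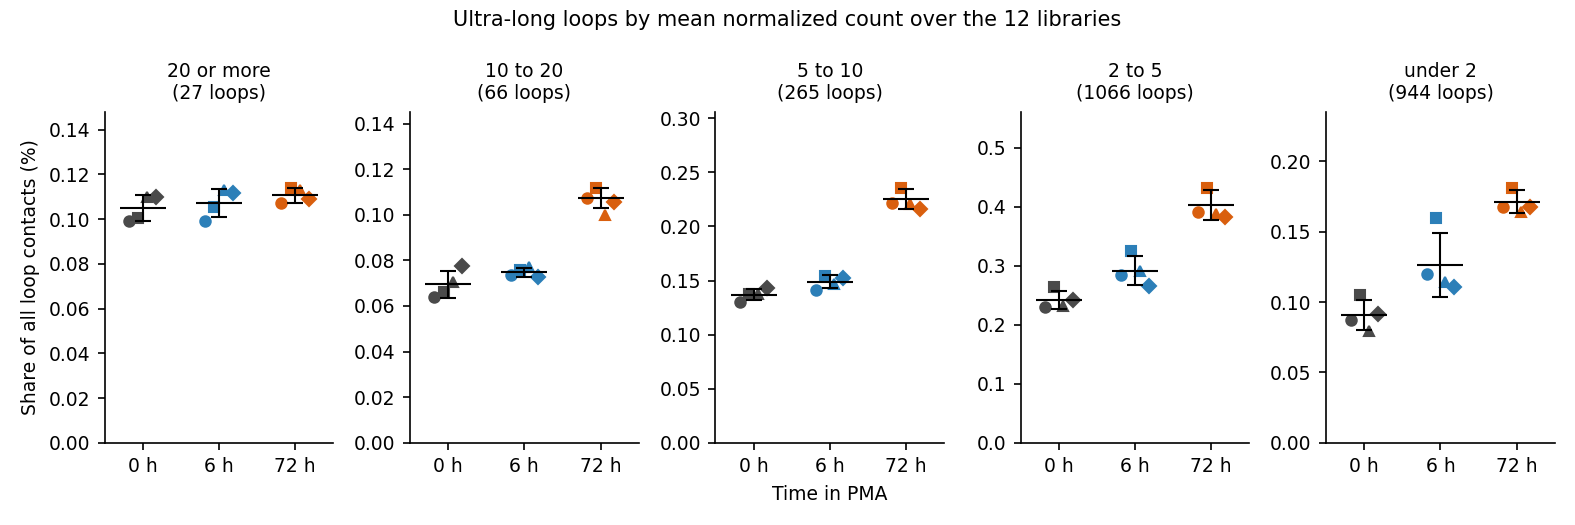
Share of all loop contacts (%) held by ultra-long loops grouped by their mean normalized count over the 12 libraries, at 0, 6 and 72 h in PMA; markers are libraries, lines are means and bars are SD (n = 4, 4 and 3). The 27 strongest loops stay between 0.0991% and 0.114% at all 3 times, and in the other 4 classes the 72 h libraries are the highest against 0 h; axes start at 0 and differ between panels.

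Taken loop by loop and without any filter, the mean normalized count was higher at 72 h than at 0 h in 1956 of the 2368 members (82.6%), against 58.2% of all loops. The median log2 ratio of the means, with a pseudocount of 0.5, was 0.64 for members, 0.46 for loops of 1 to 2 Mb and 0.02 for loops under 1 Mb. All 4 libraries at 72 h were above all 4 at 0 h in 331 members (14.0%), where the background over all loops was 13.2%. All 4 were below in 17 members (0.718%), where the background was 10.3%. The share wholly above was near the background and the share wholly below was under it. At 6 h 1526 members had the higher mean and 841 the lower, with 83 wholly above 0 h (background 4.69%) and 23 wholly below (background 4.36%). Between 6 h and 72 h, 209 members were wholly above (background 9.13%) and 18 wholly below (background 7.26%).

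Single loops were tested with edgeR's quasi-likelihood test over all loops, with Benjamini-Hochberg adjustment. Only 141 members (5.95%) passed the filter on low counts, which asks for at least 4 libraries above its minimum. In 39 of these all 4 libraries at 0 h were above it, and in 31 none was. All but the 39 could enter only with libraries of a later time. At 72 h against 0 h, 57 of the tested members were called higher (background 16.7%) and 4 lower (background 16.9%). Of the 57, 24 were among those 31 and only 9 among those 39, so the filter itself favoured rises. This fit kept the 72 h replicates 3 and 4 apart, and with both summed into 1 library 63 members were called higher and 4 lower at 72 h against 0 h. Without the filter, 276 of 2368 members were called higher (background 11.5%) and 15 lower (background 14.7%). With a correction for the trend of fold change with loop length, 6 tested members were higher and 26 lower (backgrounds 13.7% and 15.9%). Of the 57, 6 were still called higher under that correction and 7 had a log2 difference below 0. At 6 h against 0 h, 2 members were higher (background 2.34%) and 0 lower (background 4.07%), 18 had an unadjusted p under 0.05 and DESeq2 without independent filtering called 1. At 72 h against 6 h, which also tests whether the changes at 6 h and 72 h differ, 41 were higher (background 10.7%) and 1 lower (background 9.81%). That total of 42 was 24 without 72 h replicate 1 and 27 without 6 h replicate 1. The authors' deposited table classed 2367 members as static and 1 as gained, and it gave a log2 fold change for 44 of them.

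The strongest member was loop28928 on chromosome 16 (70120001 to 70130000 with 74360001 to 74370000), 4.24 Mb long with 36 protein-coding genes between its anchors. Its normalized counts at 0 h were 245, 239, 280 and 251, at 6 h 223, 193, 239 and 268, and at 72 h 196, 234, 190 and 203. Every 72 h library was below every 0 h library, and the 6 h libraries overlapped both. It fell by 0.29 ± 0.09 (SE) on the log2 scale at 72 h (adjusted p = 0.0063, edgeR). One anchor lies over PDPR, which encodes a regulatory subunit of pyruvate dehydrogenase phosphatase, and the other over its pseudogene copy PDPR2P, so reads that fit both copies could count as contacts and the level is uncertain. Loop28929, from a neighbouring PDPR anchor to GLG1, the gene of a Golgi membrane glycoprotein, had counts of 53.6, 43.7, 45.2 and 42.1 at 0 h and of 27.4, 37.1, 41.6 and 26.8 at 72 h. It fell by 0.49 ± 0.16 (SE) on the log2 scale (adjusted p = 0.011, edgeR), and the call was lost without 0 h replicate 1 (adjusted p = 0.083), 72 h replicate 1 (adjusted p = 0.055) or 72 h replicate 4 (adjusted p = 0.059). With these included, the call was lost in 6 of 28 alternative settings. Loop28932, from PDPR to PSMD7, a proteasome subunit gene, was 60.9 ± 12 (SD, n = 4) at 0 h and 56.6 ± 0.44 (SD, n = 3) at 72 h, with a log2 difference of -0.09 that did not pass the test (adjusted p = 0.66, edgeR).

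The other falls were on chromosome 18, between the region of CLUL1, a clusterin-like gene of the retina, and DLGAP1, which encodes a postsynaptic scaffold protein. Loop30118 (610001 to 620000 with 3660001 to 3670000) had counts of 56.5, 46.5, 66.5 and 51.2 at 0 h, of 41.2, 49.5, 56.6 and 62.7 at 6 h and of 37.2, 33.1, 44.7 and 34.8 at 72 h. The 72 h libraries were below all 0 h libraries, and the loop fell by 0.53 ± 0.15 (SE) on the log2 scale (adjusted p = 0.0033, edgeR). Loop30117, whose anchors lie beside those of loop30118, went from 38.5 ± 2.9 (SD, n = 4) to 26.5 ± 6.0 (SD, n = 4) at 6 h and 26.1 ± 3.0 (SD, n = 3) at 72 h, and it fell by 0.48 ± 0.17 (SE) on the log2 scale at 72 h (adjusted p = 0.022, edgeR). That call was lost without 72 h replicate 1 (adjusted p = 0.058) or 72 h replicate 2 (adjusted p = 0.053). With these included, it was lost in 6 of 28 alternative settings. The 4 members called lower had mean normalized counts of 30.7 or more over the 12 libraries, and all 4 were also called lower with the length correction. That correction also lowered strong members that had not passed the test, such as loop28932, from -0.09 to -0.83 on the log2 scale. It is therefore no separate check on these falls. Together the 10 members on chromosome 16 and the 9 on chromosome 18 held 0.896 and 0.806 times their 0 h share at 72 h, the only chromosomes with a ratio under 1. The libraries of both times overlapped on chromosome 16, where loop28928 alone held 2724 of the members' 4599 contacts. On chromosome 18, loop30118 and loop30117 held 569 and 369 of the members' 1212 contacts, so its ratio largely repeats these 2 falls.

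The longest loop in the whole table, loop25761, was also the second strongest member. It joins chr13:80880001-80890000 and chr13:89790001-89800000, 8.91 Mb apart with 5 protein-coding genes between them and none over either anchor. Its counts were 88.4, 98.7, 79.0 and 86.4 at 0 h, 89.2, 110, 83.5 and 79.6 at 6 h and 113, 124, 118 and 119 at 72 h. The 72 h libraries were above all others. The loop rose by 0.41 ± 0.11 (SE) on the log2 scale against 0 h (adjusted p = 0.0022, edgeR) and by 0.36 ± 0.11 (SE) against 6 h (adjusted p = 0.015, edgeR). With the length correction it was lower at 72 h by 0.49 on the log2 scale (adjusted p = 0.00027, edgeR), the opposite direction.

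The next 2 longest loops, of 7.86 and 7.78 Mb, lie on chromosome 9 and stood apart from the rest in their surroundings, with 101 and 100 protein-coding genes between their anchors. Loop19708 runs from PSMD5, which encodes a proteasome assembly chaperone, to SET, a chromatin-regulator gene. It had 13.2 ± 4.8 (SD, n = 4), 14.8 ± 5.8 (SD, n = 4) and 11.3 ± 1.4 (SD, n = 3) normalized counts at 0, 6 and 72 h, and loop19709 had 14.7 ± 2.2 (SD, n = 4), 18.9 ± 4.0 (SD, n = 4) and 18.4 ± 2.3 (SD, n = 3). Neither passed the test at 72 h (adjusted p = 0.78 and 0.24, edgeR). Loop8712 (7.15 Mb, chromosome 4) and loop21722 (6.56 Mb, chromosome 11) had under 6 normalized counts in every library and were not tested.

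Among the other strong members, 3 on chromosome 7 join the stretch from 67020001 to 67270000 with that from 72550001 to 72810000. Loop16209 and loop16210 have TYW1 at one anchor and its near-identical copy TYW1B, a gene of tRNA wybutosine synthesis, at the other, so their counts are uncertain for the same reason as at PDPR. Gene names at both anchors were compared, leaving out LOC and similar names. Only in these loops and loop28928 did one name begin with the other. Duplicated sequence itself was not searched for, so other members could have the same doubt. Loop16210 had counts of 20.3, 22.8, 53.9 and 55.7 at 0 h, of 26.5, 25.2, 73.6 and 55.5 at 6 h and of 21.2, 23.1, 52.0 and 31.2 at 72 h. Replicates 3 and 4 were above replicates 1 and 2 at every time, by 2.31 times on average, and loop16211 showed the same order of averages with a ratio of 1.83. None of these 3 loops passed the test at 72 h (adjusted p = 0.37 to 0.59, edgeR). Loop27490 on chromosome 15 and loop10276 on chromosome 4, the remaining members among the 10 strongest, did not pass it either (log2 differences of -0.06 and 0.17, adjusted p = 0.78 and 0.44, edgeR).

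**Figure D4:**
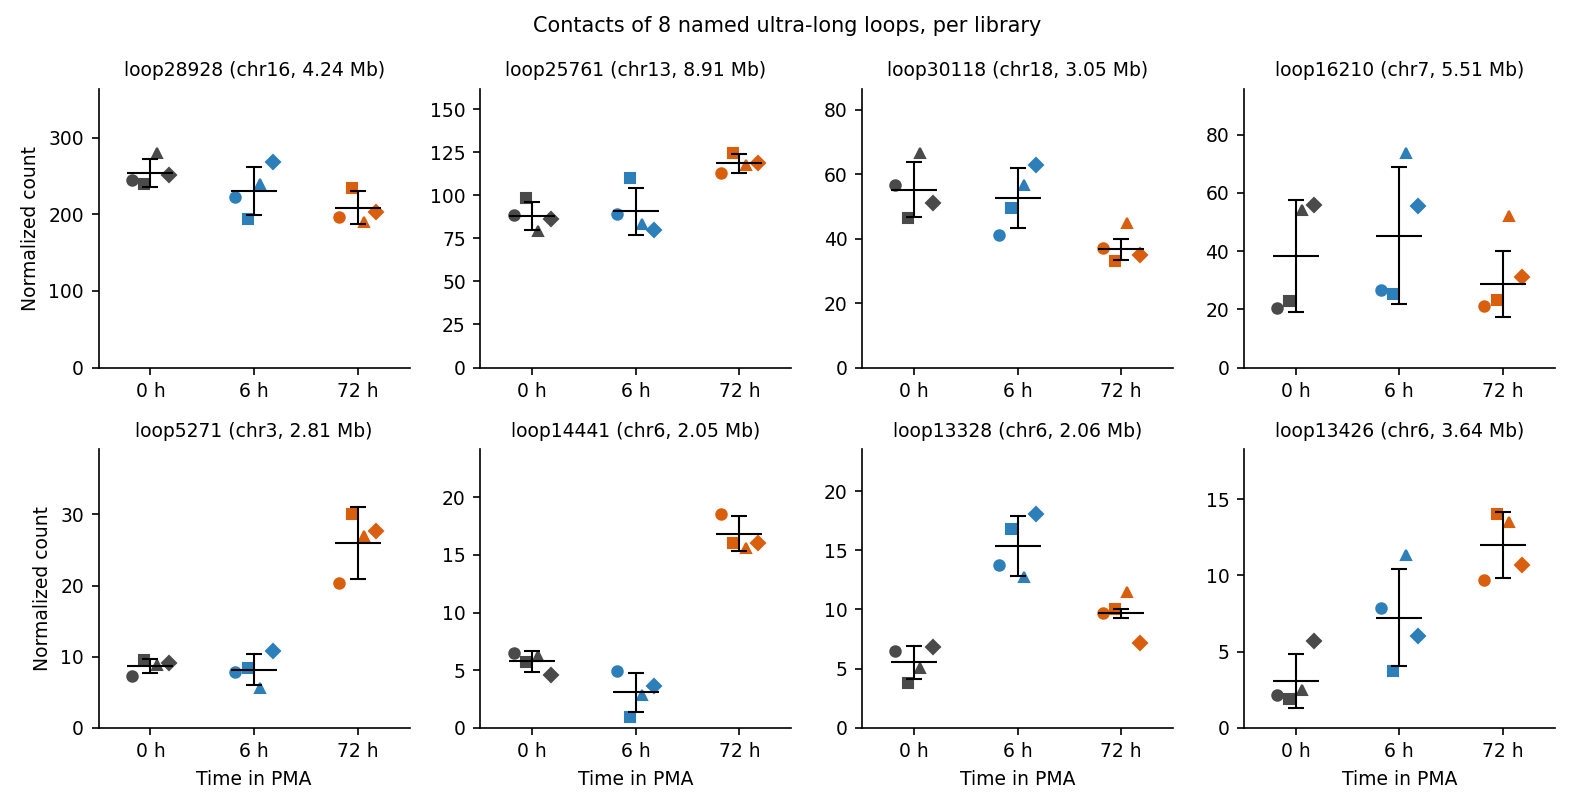
Normalized counts of 8 ultra-long loops at 0, 6 and 72 h in PMA; markers are libraries (circle, square, triangle and diamond for replicates 1 to 4), lines are means and bars are SD (n = 4, 4 and 3). Loop28928 and loop30118 are lowest at 72 h, loop25761, loop5271, loop14441 and loop13426 are highest at 72 h, loop13328 is highest at 6 h, and loop16210 divides by replicate; axes start at 0.

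The 57 members called higher at 72 h were selected for that rise, so little overlap with the 0 h libraries was built in. Of these members, 47 (82.5%) had every 72 h library above every 0 h library, against 2902 of all 4024 loops called higher (72.1%), selected alike. A protein-coding gene end was absent from both anchors in 47 of the 57. The 10 with the largest rise and no overlap are named here. Of these, 9 had no 0 h library above the filter's minimum. The other, loop12364, had 1 at 0 h, 0 at 6 h and 4 at 72 h. All 10 therefore entered the test only through libraries of a later time. Loop5271 on chromosome 3 (33880001 to 33890000 with 36690001 to 36700000), with no protein-coding gene over either anchor, had counts of 7.24, 9.49, 8.78 and 9.10 at 0 h, of 7.84, 8.41, 5.66 and 10.9 at 6 h and of 20.3, 30.1, 27.0 and 27.7 at 72 h. The 0 h and 6 h libraries overlapped and the 72 h libraries were above both. It rose by 1.42 ± 0.23 (SE) on the log2 scale (adjusted p = 3.4e-07, edgeR) and by 1.45 ± 0.24 (SE) against 6 h (adjusted p = 2.1e-06, edgeR). Loop14441 on chromosome 6, from the Kelch-family gene KLHL32 to an anchor without a protein-coding gene, had 6.52, 5.70, 6.27 and 4.55 at 0 h, 4.90, 0.935, 2.83 and 3.62 at 6 h and 18.6, 16.1, 15.6 and 16.1 at 72 h. It rose by 1.25 ± 0.28 (SE) against 0 h (adjusted p = 0.00017, edgeR) and by 1.89 ± 0.32 (SE) against 6 h (adjusted p = 2e-06, edgeR).

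The largest fitted rise among tested members was that of loop13426 on chromosome 6, 3.64 Mb long, from CDKAL1, which encodes a tRNA-modifying enzyme, to DCDC2, a doublecortin-domain gene. Its counts were 2.17, 1.90, 2.51 and 5.69 at 0 h, 7.84, 3.74, 11.3 and 6.03 at 6 h and 9.73, 14.1, 13.5 and 10.7 at 72 h, and it rose by 1.49 ± 0.32 (SE) on the log2 scale (adjusted p = 0.00011, edgeR). The 6 h libraries lay between the other times and overlapped both. Loop28270 (chromosome 15) and loop12364 (chromosome 5), neither with a protein-coding gene at an anchor, rose by 1.48 ± 0.31 (SE) and 1.35 ± 0.29 (SE). Loop13793, loop3949, loop17393, loop20475 and loop3824 rose by 1.18 to 1.22 on the log2 scale (adjusted p = 8.6e-05 to 0.00095, edgeR); with the length correction 4 of these 5, all but loop3949, were not called (adjusted p = 0.053 to 0.13). Loop13793 runs from OPN5 to CRISP1, a secreted protein gene of the epididymis, and loop20475 ends in CTNNA3, an alpha-catenin gene.

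The OPN5 anchor whose promoter is printed above took part in loop13791 with DEFB110. That loop had counts of 6.52, 3.80, 10.0 and 7.96 at 0 h, of 1.96, 5.61, 1.42 and 4.83 at 6 h and of 16.8, 20.1, 10.4 and 14.3 at 72 h. It rose by 0.98 ± 0.28 (SE) against 0 h (adjusted p = 0.0033, edgeR) and by 1.64 ± 0.32 (SE) against 6 h (adjusted p = 3.7e-05, edgeR). No 0 h or 6 h library of loop13791 was above the filter's minimum, so it entered the test only through its 72 h libraries. A further loop from the same anchor, loop13792 of 4.23 Mb to PKHD1, the gene of fibrocystin, was called only without the filter (log2 difference 1.01 ± 0.37 SE, adjusted p = 0.029, edgeR). Of the other promoters shown, loop15081 at CITED2 went from 3.28 ± 1.1 (SD, n = 4) to 9.69 ± 2.4 (SD, n = 3) and rose without the filter by 1.04 ± 0.33 (SE, adjusted p = 0.011, edgeR). At SLITRK3, 6 members had an end of the gene at an anchor and 2 of the 6 rose without the filter, and at DNAJB14 1 of the 4 did, loop9393 to BDH2, with 1.55 ± 2.2 (SD, n = 4) at 0 h and 7.32 ± 0.63 (SD, n = 3) at 72 h. Loop9659 at ANXA5 did not (adjusted p = 0.20, edgeR).

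At 6 h the call that held without overlap was loop13328 on chromosome 6, 2.06 Mb long, with one anchor over CD83, which encodes a surface protein of activated dendritic and B cells. Its counts were 6.52, 3.80, 5.02 and 6.82 at 0 h, 13.7, 16.8, 12.7 and 18.1 at 6 h and 9.73, 10.0, 11.4 and 7.14 at 72 h. The 6 h libraries were above all libraries of the other times. It rose by 1.20 ± 0.29 (SE) on the log2 scale at 6 h (adjusted p = 0.0036, edgeR), and its later level, 0.60 ± 0.30 (SE) above 0 h, did not pass the test (adjusted p = 0.11, edgeR). The other call, loop26057 on chromosome 13 with an anchor in the glypican gene GPC5, had 31.4, 30.8, 15.6 and 15.7 at 6 h against 7.97, 19.0, 16.3 and 15.9 at 0 h, and only replicates 1 and 2 at 6 h were above the 0 h libraries. Its log2 difference was 0.70 ± 0.23 (SE, adjusted p = 0.040, edgeR), and the call was lost without the filter (adjusted p = 0.058). Loop13328 had no 0 h library above the filter's minimum.

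The 1 member that the authors' deposited table classed as gained was loop22404 on chromosome 11, 2.55 Mb long, without a protein-coding gene at its anchors. The authors' deposited table has 0.04 for its log2 change at 6 h, 1.09 for that at 72 h and an adjusted p of 0.0074. In the fit used here, its counts of 9.42, 17.1, 15.1 and 13.6 at 0 h and of 34.5, 32.1, 30.2 and 31.2 at 72 h gave a rise of 1.14 ± 0.21 (SE) on the log2 scale. The adjusted p was 5e-06 (edgeR). At 6 h replicate 3 held 36.8 and the others 11.8 to 15.7, so that the groups overlapped.

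Members were spread over 21 of the 23 chromosomes, with none on chromosomes 19 and 22. Chromosome 4 had the most, 415 or 14.6% of its loops, followed by chromosome 3 with 375, chromosome 5 with 248 and chromosome 13 with 207, or 12.6% of its loops. Chromosome 17 had 3, or 0.319% of its loops. The 72 h share was 1.89 times the 0 h share on chromosome 2, 1.87 times on chromosome 12 and 1.84 times on chromosome 10. On chromosome 20 it was 1.21 times, with overlapping libraries.

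**Figure D5:**
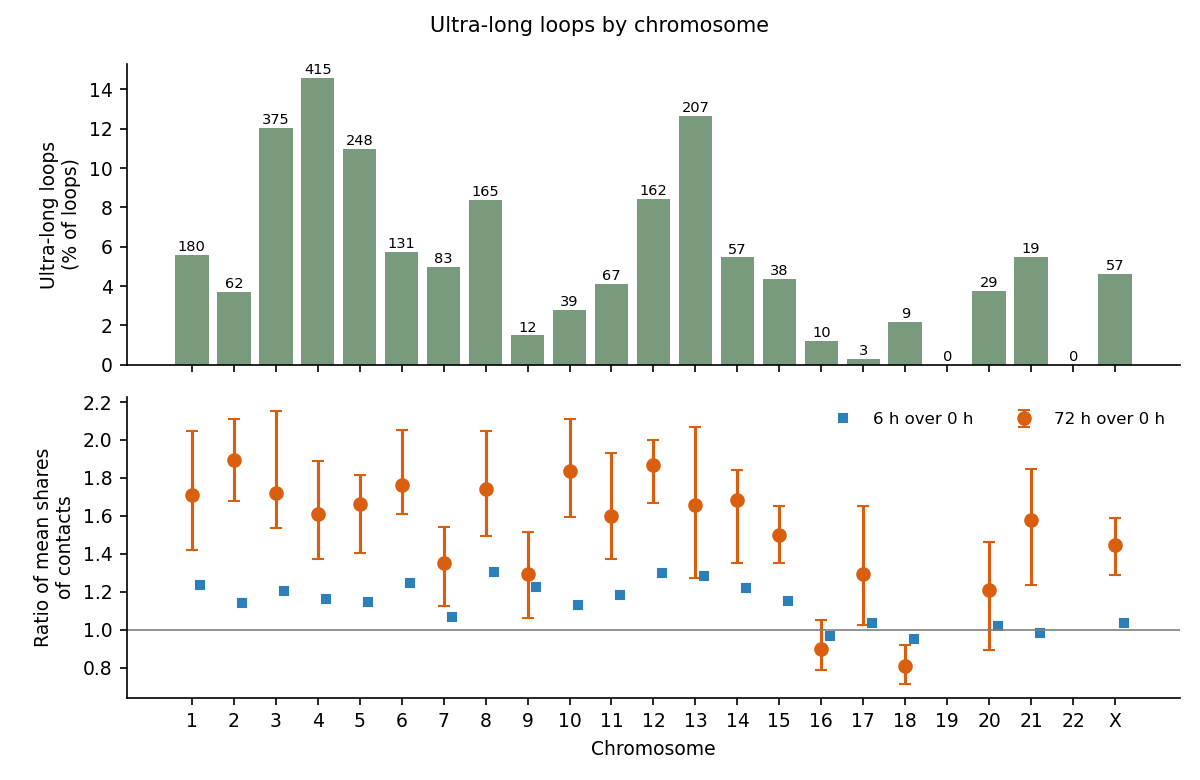
Upper panel, ultra-long loops as a percentage of the loops of each chromosome, with their number above each bar; lower panel, ratio of their mean share of all loop contacts at 72 h (circles, bars span all pairs of a 72 h and a 0 h library) and 6 h (squares) to that at 0 h. Chromosome 4 has the most members, 415, and only chromosomes 16 and 18 have a 72 h ratio under 1, 0.896 and 0.806.

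Many ultra-long loops shared anchors. Of the 2368 members, 1121 had an anchor in common with another member, and 3446 of the 4008 anchors served a single member. The busiest anchors, at chr5:21490001-21500000 and, in the gene of the BMP receptor BMPR1B, at chr4:95150001-95160000, served 7 each. The largest linked group held 26 members with 27 anchors between 79220001 and 86590000 on chromosome 3, over ROBO1, an axon guidance receptor gene, GBE1, of glycogen synthesis, and CADM2, a synaptic adhesion gene. Its summed normalized counts were 23.2, 33.2, 30.1 and 30.7 at 0 h, 29.4, 57.0, 32.5 and 32.6 at 6 h and 61.9, 57.2, 55.1 and 58.0 at 72 h. The 72 h libraries were above all 0 h libraries and 1 library at 6 h reached their level; the 72 h mean was 2.00 times the 0 h mean. None of the 26 loops passed the filter, and 4 were called higher without it, a share near the background of 11.5% over all loops. The next largest group, 14 members on chromosome 3 over ROBO1 and CADM2, had a ratio of 1.80, with 12 of 14 means higher at 72 h. A group of 10 on chromosome 1 over NEGR1, a neuronal growth regulator gene, and ERICH3 had a ratio of 2.04, with 10 of 10 means higher at 72 h. Another group of 10, on chromosome 11 over CNTN5 and ARHGAP42, had a ratio of 1.82, with 9 of 10 means higher. Over all members, 82.6% had the higher mean at 72 h. Loops of 1 group share anchors and are not independent of each other.

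Gene lists were set against the anchors to describe which functions ultra-long loops touch. Of 19974 protein-coding genes, 278 (1.39%) had an end at a member's anchor and 7295 (36.5%) at the anchor of a loop under 1 Mb. None of 26 megakaryocyte and platelet genes and none of 33 haematopoietic transcription factor genes had an end at a member's anchor, where the share over all genes leaves less than 1 gene of either list, and 11 and 21 of them had one at the anchor of a loop under 1 Mb. Of 24 AP-1, immediate early and protein kinase C genes only NFKB1, the gene of an NF-kappa-B subunit, was at an anchor, and its loop9388 had 5.75 ± 1.6 (SD, n = 4) at 0 h and 3.40 ± 0.90 (SD, n = 3) at 72 h. Of 163 developmental regulators, a class often bound by Polycomb, NR2F1, of an orphan nuclear receptor, was at 1 anchor, and 75 were at anchors of loops under 1 Mb.

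Genes of neural adhesion, axon guidance and synapse, a list chosen with earlier results of these data known, were at the anchors of 32 members, from 17 of 114 genes. Of the same 114 genes, 30 were at anchors of loops of 1 to 2 Mb and 34 at anchors of loops under 1 Mb. Summed over the libraries, the 32 members held 448 contacts at 0 h, 481 at 6 h and 895 at 72 h. These sums are not scaled for depth, and the 6 h libraries held the fewest contacts in total. Of the 32, 30 had the higher mean at 72 h than at 0 h, as did 82.6% of all members. Of the 32, 4 were tested and 2 called higher, and without the filter 10 were called higher and 0 lower (backgrounds 11.5% and 14.7%). Loop9771 from FAT4, the gene of an atypical cadherin, had 12.3, 10.4, 8.78 and 14.8 at 0 h and 15.9, 20.1, 18.7 and 28.6 at 72 h, and it rose by 0.74 ± 0.23 (SE, adjusted p = 0.0079, edgeR). Loop9773, from the same FAT4 anchor to a site farther on, went from 8.44 ± 1.6 (SD, n = 4) to 16.6 ± 3.9 (SD, n = 3) and rose by 0.79 ± 0.26 (SE, adjusted p = 0.012, edgeR). It had 1 library above the filter's minimum at 0 h, 1 at 6 h and 4 at 72 h, and so was tested only because of its 72 h libraries. Loop20469 at LRRTM3, a synaptic leucine-rich repeat gene, and loop10772 at FAT1 did not pass the test (log2 differences 0.65 and 0.30, adjusted p = 0.051 and 0.39, edgeR).

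At the length threshold, 21 loops were exactly 2.00 Mb long and 37 were 1.99 Mb long. Just inside, loop24734 had 4.54 ± 1.2 (SD, n = 4) at 0 h and 9.11 ± 3.5 (SD, n = 3) at 72 h, and loop24362 had 2.96 ± 2.8 (SD, n = 4) and 7.35 ± 2.7 (SD, n = 3). Just outside, loop12785 had 14.4 ± 6.7 (SD, n = 4) and 16.7 ± 3.2 (SD, n = 3), and loop2377 had 6.36 ± 4.2 (SD, n = 4) and 14.5 ± 3.2 (SD, n = 3).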

How the data were processed

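Loop positions, contact counts and log2 fold changes with adjusted p-values came from 1 deposited table. Per the file headers, the authors deposited raw contact counts in 30 columns, 1 per technical replicate, all of which were used, together with their own log2 fold changes and adjusted p-values, which were equal at both times. Juicer 1.5.6, DESeq2 and hg38 are named, without a role, in the submitters' processing notes; how loops were called is not given in the sources used here. Anchor positions were turned to start from 1. Counts were summed into 12 libraries and fitted over all 33914 loops with edgeR 4.0.16 in R 4.3.3: filterByExpr (minimum count 10, minimum total 15, leaving 24132 loops), TMM scaling, 1 quasi-likelihood model of 3 times with no covariate, Benjamini-Hochberg adjustment and a threshold of 0.05. A prior count of 2 went into each log2 fold change, whose standard error is its size over the root of F. The code was tested on simulated data, with 200 loops changed by 1.5 or 2 times at 72 h. Changes placed in any tested loops were recovered in 59%. Of those placed in members, the filtered fit recovered 2.5% and the fit without a filter 2%. In that setting most changes of single members were missed. DESeq2 1.42.0, other scalings and filters, a loess correction for loop length, a replicate term, batches and each library left out were alternatives. Members and gene lists were chosen with earlier results of these data known. The erythroid gene list is not reported here. Loops were named by rule: the 10 strongest, the largest rises and falls past the threshold with no overlap between times, the longest, those at the length threshold and up to 5 per gene list; loop26057, loop22404 and those at the printed promoters were added after their values were seen. Genes are those of RefSeq GRCh38.p14, all listed genes being found in it. The replicates are biological per the labels; p-values measure the spread between these libraries.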

Additional observations from a re-analysis of the deposited data

Results flagged for a closer look

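In 98 groups of 4 libraries (0 h and 6 h) examined for a library far from the other 3, 4 were found, and chance gives about 1 in 20, or 4.9. The share of contacts in members of 2.5 to 3 Mb at 6 h was 0.192% in replicate 2 and 0.163% to 0.167% in the others. Loop13426 at 0 h had a normalized count of 5.69 in replicate 4 and 1.90 to 2.51 in the others, and loop12364 at 0 h had 12.5 in replicate 4 and 2.17 to 3.80 in the others. Without 0 h replicate 4, their rises at 72 h were 1.73 and 1.83 on the log2 scale, both past the threshold. Loop13793 at 6 h had 1.42 in replicate 3 and 10.3 to 12.1 in the others.

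The changes at 6 h and at 72 h differed in 42 of the 141 tested members, by edgeR's test of 72 h against 6 h, which is the difference of both changes against 0 h. It was higher at 72 h in 41 and lower in 1.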

How the results depend on the processing

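The count of 61 members changed at 72 h against 0 h (57 higher, 4 lower) was 36 with DESeq2 with or without independent filtering, 13 at a mean count of at least 20, 10 with technical replicates as libraries, 20 within replicates 3 and 4, 291 without a filter, and 165 and 17 for loops of at least 1.5 Mb and 3 Mb. It turned to mostly lower with the length correction, at 32 (6 higher, 26 lower), and with that correction and no filter, an alternative added after seeing the data, at 107 (41 higher, 66 lower). The 2 members changed at 6 h were 0 with DESeq2 with independent filtering, technical replicates as libraries or a cut of 3 Mb; 1 with DESeq2 without it, a mean count of at least 20, within replicates 1 and 2 or at an adjusted p under 0.01; 9 without a filter; 6 for loops of at least 1.5 Mb; and 12 (5 higher, 7 lower) without a filter and with the length correction. The 42 members changed between 6 h and 72 h were 7 and 10 with DESeq2 with and without independent filtering, 8 at a mean count of at least 20, 120 without a filter, 6 with technical replicates as libraries, 13 within replicates 3 and 4, 14 at an adjusted p under 0.01, 106 and 12 for the cuts at 1.5 and 3 Mb, and 31 (7 higher, 24 lower) with the length correction. Leaving out each library gave 48 to 77, 1 to 3 and 24 to 51. The replicate block gave 62, 2 and 49 and share ratios of 1.57 and 1.16, and changed no direction of these. Same-numbered libraries correlated at 0.013 to 0.12 over tested loops, all 12 pairs above 0 and 1 above 0.1, and at -0.12 to 0.25 over tested members. A library correlated best with its own number in 19 of 24 comparisons over tested loops, a hint from the data and not the design, so the numbers were not taken to pair the samples. The 72 h share ratio of 1.58 was 1.46 for loops of at least 3 Mb, 1.34 over tested loops and 1.70 as the median over members with at least 10 contacts, and 1.54 to 1.61 with each library left out; the 6 h ratio of 1.16 was 1.06 over tested loops and 1.13 to 1.18. Among named loops, the length correction gave -0.49 for loop25761 and -0.52 for loop10276, and -0.44 and -0.50 without a filter. Loops that had not passed the test changed sign near 0: loop28932 was 0.035, loop27490 0.078, loop16210 0.032 and loop10276 -0.032 within replicates 1 and 2. With each library left out, loop16211 ran from -0.39 to 0.012, loop16209 from -0.27 to 0.024, loop27490 from -0.20 to 0.012 and loop16210 from -0.49 to 0.049. The cause of these differences was not tested. Members are thin in contacts, most with under 5 per library, which limits single loops more than sums.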
